A study of Mus musculus with 4 samples.

Results

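The receptor DR3, encoded by Tnfrsf25, and the adaptor proteins that bind at or near its cytoplasmic tail were examined in mouse group 3 innate lymphoid cells (ILC3s) given the DR3 ligand TL1A. The 10 members were chosen by name: Tnfrsf25, Tradd, Ripk1, Traf1, Traf2, Traf3, Traf5, Birc2, Birc3 and Cflar, out of 24343 genes and unnamed transcripts in the count table. RNA-seq had been made from 2 libraries of TL1A-treated cells and 2 libraries of cells kept in medium. Both groups were ILC3s of the genotype IL23R-GFP/WT, in which GFP reports Il23r expression, and were sorted by flow as cells without lineage markers that carried CD127 and GFP. The labels mark the TL1A libraries as stimulated, and the libraries without that mark were taken as the medium group. The sources used here do not state age, sex, TL1A dose or length of treatment. Whether libraries of 1 group represent different mice is also unstated, so p-values reflect the spread among these 4 libraries alone, and that spread may be technical.

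DR3 is a death domain receptor of the TNF receptor superfamily. When TL1A binds, its death domain recruits TRADD, which brings in the kinase RIPK1, TRAF proteins and the ubiquitin ligases cIAP1 (Birc2) and cIAP2 (Birc3). That complex feeds NF-κB and MAP kinase signalling, and the caspase-8 homologue c-FLIP (Cflar) limits the alternative, death-inducing outcome. In lymphocytes DR3 is known as a costimulatory receptor, and in ILC3s TL1A is known to enhance cytokine production.

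The libraries held 11849977 and 12605164 reads assigned to transcripts with TL1A and 11495636 and 12222552 in medium. The ILC3 marker Il23r had 7132 and 7329 reads with TL1A and 12643 and 13292 in medium, and Il7r had 12994 and 13812 with TL1A and 44605 and 48880 in medium, whereas Kit had 1 read in all 4 libraries together. Of 11 ILC3 markers tested, 3 were higher and 6 lower with TL1A, against 20.6% of all genes higher and 21.7% lower by the test given below. Marker lists of other cell types also differed between the groups in their summed CPM, the read count scaled to library size with TMM factors. ILC1 and NK cell markers reached 469 and 442 CPM with TL1A and 29.4 and 25.9 CPM in medium, with Eomes at 0; most of this was Ncr1 (4747 and 4893 reads with TL1A, 188 and 214 in medium), which some ILC3s also express. Summed myeloid markers, mostly Fcer1g, reached 746 and 731 CPM with TL1A and 1649 and 1823 CPM in medium, with Itgam at 0. Summed T cell markers, mostly Cd4 and Lat, reached 211 and 206 CPM with TL1A and 497 and 513 CPM in medium, with Cd8a at 0. Summed B cell markers reached 114 and 97.7 CPM with TL1A and 36.5 and 47.7 CPM in medium, with Ms4a1, Pax5 and Ebf1 at 0. Nearly all of this was Cd79b (1226 and 1133 reads with TL1A, 451 and 630 in medium). ILC2 markers were at 164 and 150.1 CPM with TL1A and 64.2 and 74.7 CPM in medium. With TL1A most of that sum was Klrg1 (1486 and 1522 reads with TL1A, 344 and 372 in medium). Epithelial and stromal markers were at 4.83 and 4.996 CPM with TL1A and 13.7 and 7.56 CPM in medium. Reads were found for 7 of 8 listed ILC1 and NK cell markers, 8 of 9 myeloid, 6 of the 7 T cell markers in the table, 7 of 7 ILC2 and 6 of 7 epithelial and stromal markers. The part of these cell types in the results below was not tested, and in bulk RNA fewer cells of a type and less RNA per cell cannot be told apart.

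Among the members, the TRAF and cIAP adaptors Traf1, Birc3, Birc2 and Traf5 were higher with TL1A, as was Cflar, counted on the row of a short form. The receptor gene, counted as the sum of its rows, and the first adaptors Tradd and Ripk1 did not pass the test. Traf3 did not pass either, and Traf2 had no counted read. In numbers, 5 of the 9 members with enough reads to be tested were higher at an adjusted p under 0.05, none was lower and 4 did not pass (edgeR quasi-likelihood test, Benjamini-Hochberg adjusted over 9852 genes). Over all genes tested, 42.3% were called by the same rule, 20.6% higher and 21.7% lower. No member was lower at an unadjusted p under 0.05 or with DESeq2 either. Cflar entered the test only because of its reads in the TL1A libraries, so its place in that count was partly set by the filter on low counts. The median log2 fold change was 1.11 over the 9 tested members and -0.03 over all genes tested. The members were chosen with earlier results of these data known, so neither this contrast nor the count tests them as a set.

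**Figure D1:**
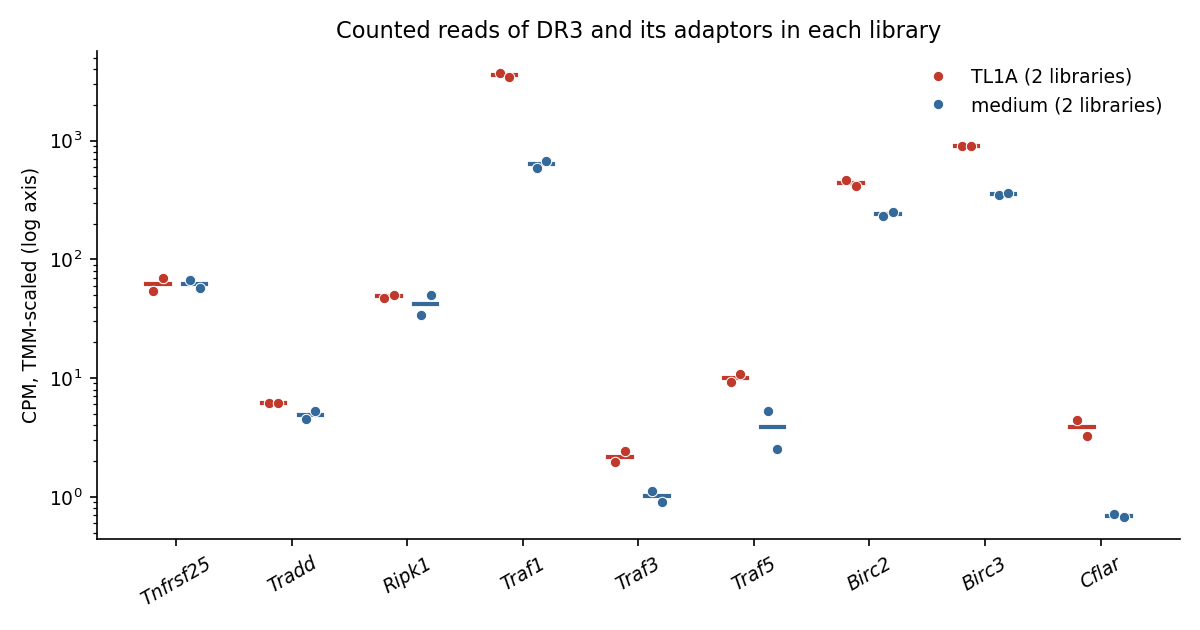
Counted reads of the 9 members with any read, as CPM scaled with TMM factors on a log axis; points are the 2 TL1A and the 2 medium libraries of each gene and bars their means. Traf1 sits at 3715 and 3419.9 CPM with TL1A and 585 and 674 CPM in medium, while the libraries of Tnfrsf25 and Ripk1 overlap between the groups.

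Tnfrsf25 had 583 and 804 reads with TL1A and 848 and 764 in medium when its 2 deposited rows were added, which is 54.2 and 69.3 CPM with TL1A against 67.5 and 57.2 CPM in medium. The groups overlapped, and the log2 fold change was -0.01 (95% interval -0.37 to 0.35, edgeR adjusted p = 0.956). The sum leaves out reads that both rows share, so it is not the level of the whole gene. It also hides a difference between the rows. Row NM_001291010 had 435 and 598 reads with TL1A and 416 and 379 in medium, and row NM_033042 had 148 and 206 reads with TL1A and 432 and 385 in medium. In both medium libraries the rows were close to equal, and in both TL1A libraries NM_001291010 had more reads than NM_033042. As a share of the reads in both rows, NM_033042 made up 25.4% (95% Wilson interval 22.0% to 29.1%) and 25.6% (22.7% to 28.8%) with TL1A, against 50.9% (47.6% to 54.3%) and 50.4% (46.9% to 53.9%) in medium. These intervals cover counting error only, and the share does not depend on how libraries are scaled.

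Tested row by row over 10100 rows, NM_001291010 rose, with a log2 fold change of 0.58 and an SE of 0.16 (edgeR adjusted p = 0.025). NM_033042 fell to 0.50 times its medium level (95% interval of the log2 fold change -1.44 to -0.57, adjusted p = 0.0042). By this rule 41.8% of all rows were called, 20.4% higher and 21.5% lower. The test of unequal change of rows within a gene passed for Tnfrsf25 (edgeR diffSpliceDGE, adjusted p = 0.00701), which ranked 6 of 268 genes with several tested rows, of which 4.48% were called. The companion test of the single row against its gene did not pass for NM_033042 (adjusted p = 0.0758). The rise of NM_001291010 was lost without TL1A replicate 2 (log2 fold change 0.40, adjusted p = 0.142) or without medium replicate 2 (0.51, adjusted p = 0.073), while the fall of NM_033042 passed without each library. The within-gene call was lost without TL1A replicate 1 (adjusted p = 0.0694) or TL1A replicate 2 (adjusted p = 0.0577). In those settings edgeR called 0 genes, with 44 and 36 at an unadjusted p under 0.05.

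The rows differ at both a start site and a pair of coding exons. In the GENCODE annotation (GRCm38), NM_001291010 corresponds to a transcript of 10 exons at chr4:152115934-152120119 on the plus strand, and NM_033042 to one of 7 exons at chr4:152116343-152120111. The second start lies 409 bases downstream of the first, inside the first intron of the longer transcript. NM_001291010 alone holds exons 5 and 6 of 55 and 56 bases, together 111 bases or 37 codons in frame, from the extracellular cysteine-rich part of the receptor. The coding sequences, without the stop codon, are 411 codons in NM_001291010 and 387 in NM_033042. Counted reads come from the stretches found in 1 transcript only, which are 300 bases for NM_001291010 and 242 bases for NM_033042. Per kilobase of those stretches, NM_001291010 was at 135 and 172 CPM with TL1A and 110.3 and 94.5 CPM in medium, and NM_033042 at 56.8 and 73.4 CPM with TL1A and 142 and 119 CPM in medium. These values take the annotated stretches as the counted ones, and reads that cross their edges may have been assigned either way.

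The stretch that counts for NM_033042 is part of the first intron of NM_001291010, so unspliced RNA would be counted there too. Uniquely placed reads outside all annotated transcripts, which include unspliced RNA, made up 30.6% and 28.8% with TL1A and 35.0% and 32.3% in medium. Their part in the fall of NM_033042 was not tested.

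The exons and start regions are shown because they are where the rows part. The exons come from the GENCODE transcript sequence, plus strand, and are in capitals throughout because both are absent from NM_033042. The start regions are RefSeq windows of 300 bases (GRCm38.p6, plus strand), with the last 50, from the start onward, in capitals.
Tnfrsf25 exon 5, chr4:152117640-152117694: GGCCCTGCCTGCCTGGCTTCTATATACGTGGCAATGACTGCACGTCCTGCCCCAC
Tnfrsf25 exon 6, chr4:152118247-152118302: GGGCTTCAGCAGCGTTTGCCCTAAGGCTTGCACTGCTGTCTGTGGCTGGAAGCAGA
Tnfrsf25 upstream start, chr4:152115684-152115983: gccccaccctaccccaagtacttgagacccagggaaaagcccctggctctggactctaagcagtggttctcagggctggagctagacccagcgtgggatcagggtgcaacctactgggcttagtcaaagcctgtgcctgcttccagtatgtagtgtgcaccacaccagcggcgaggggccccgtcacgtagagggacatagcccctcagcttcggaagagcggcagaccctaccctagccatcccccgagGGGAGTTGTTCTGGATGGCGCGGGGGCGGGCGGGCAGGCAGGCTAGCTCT
Tnfrsf25 downstream start, chr4:152116093-152116392: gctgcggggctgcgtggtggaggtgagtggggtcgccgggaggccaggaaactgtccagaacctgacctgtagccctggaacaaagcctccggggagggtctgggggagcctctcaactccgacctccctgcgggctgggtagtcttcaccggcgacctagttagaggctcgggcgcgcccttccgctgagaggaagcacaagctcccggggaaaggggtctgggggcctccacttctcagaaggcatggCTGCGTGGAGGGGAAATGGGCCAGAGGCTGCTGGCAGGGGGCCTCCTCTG

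**Figure D2:**
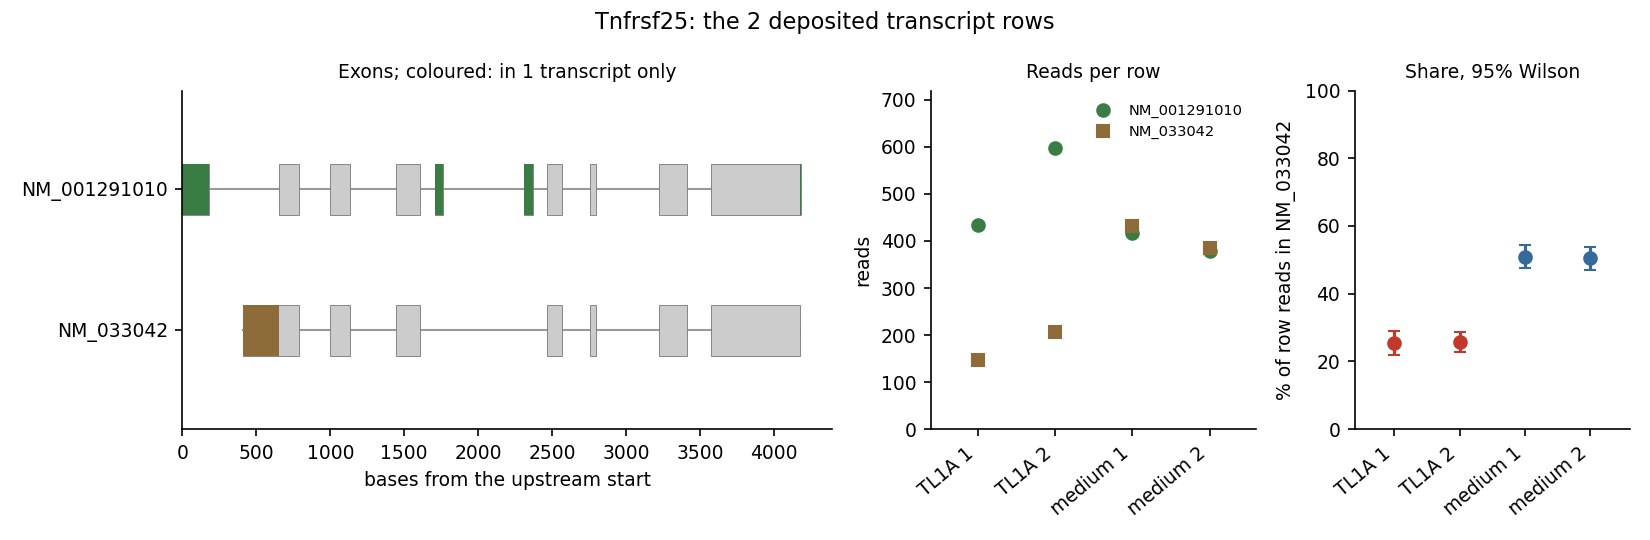
The 2 deposited rows of Tnfrsf25: exons along the gene in bases from the upstream start with stretches found in 1 transcript only in colour (left), reads per row in each library (middle), and the percent of those reads in NM_033042 with 95% Wilson intervals (right). NM_033042 holds 25.4% and 25.6% of the row reads with TL1A and 50.9% and 50.4% in medium.

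Tradd and Ripk1 encode the first proteins recruited to the death domain. Tradd, the platform adaptor, had 66 and 72 reads with TL1A and 57 and 70 in medium, or 6.13 and 6.20 CPM with TL1A against 4.53 and 5.24 CPM in medium. Its libraries did not overlap after scaling, but the log2 fold change of 0.33 did not pass (95% interval -0.26 to 0.93, edgeR adjusted p = 0.332). Of all genes tested, 72.2% had groups that did not overlap.

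Ripk1, the kinase that carries the ubiquitin chains of the complex, had 509 and 585 reads with TL1A and 425 and 672 in medium. The medium libraries were apart, at 33.8 and 50.3 CPM, and the TL1A libraries, at 47.3 and 50.4 CPM, overlapped with them. The log2 fold change was 0.22 (95% interval -0.23 to 0.66, edgeR adjusted p = 0.405). This value depended on both medium libraries. It was 0.56 without medium replicate 2, where Ripk1 was called higher, and -0.049 without medium replicate 1. The exons of Ripk1 overlap those of Gm17084 on the same strand in GENCODE, so reads of the pair may be mixed. The ratio of Tradd to Ripk1 reads was 0.13 and 0.123 with TL1A and 0.134 and 0.104 in medium.

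Traf1 and Cflar had the largest fitted log2 fold changes of the tested members, 2.50 and 2.46. TRAF1 lacks the RING domain of other TRAF proteins, binds TRAF2 and the cIAPs, and is a well known NF-κB target. It had 39983 and 39702 reads with TL1A and 7358 and 9010 in medium. In CPM that was 3568 ± 209 with TL1A and 629.8 ± 62.8 in medium (SD, n = 2 each), a 5.66-fold change (log2 fold change 2.50, SE 0.09, edgeR adjusted p = 1.07e-06). Both TL1A libraries stood far above both medium libraries, and without any single library the log2 fold change stayed between 2.40 and 2.63.

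Traf2, the TRAF protein that recruits the cIAPs, had 0 reads in both of its rows in every library. At 3 counts per library, the most that a count of 0 leaves room for was 0.279 and 0.258 CPM with TL1A and 0.239 and 0.224 CPM in medium, and only for reads assignable to 1 row. In GENCODE, NM_001290413 has 21 of 2151 bases to itself and NM_009422 has 914 of 3044, though the ends of the deposited models may differ from these. Such a count says nothing of the reads that both Traf2 rows share, which were not counted. Of genes with several rows, 44.4% had no read in any library, against 38.3% of genes with 1 row.

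Traf3, which holds back the non-canonical NF-κB kinase NIK, was counted on few reads. Row NM_011632 had 21 and 28 reads with TL1A and 14 and 12 in medium, and NM_001286122 had 0 in every library. The stretches specific to NM_011632 in GENCODE add up to 186 of 7060 bases. They are 111 and 75 bases long and lie inside the transcript. Reads from the bases that both rows share were not counted, so the values are not the level of the whole gene. Whether a change in these stretches reflects the whole gene was not tested. At 1.95 and 2.41 CPM with TL1A and 1.11 and 0.898 CPM in medium the groups did not overlap. The log2 fold change of 1.11 (95% interval 0.08 to 2.15) did not pass after adjustment (edgeR adjusted p = 0.0806).

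Traf5, a TRAF protein that acts downstream of several TNF receptors, rose. It had 100 and 125 reads with TL1A and 66 and 34 in medium, or 9.29 and 10.8 CPM with TL1A against 5.25 and 2.54 CPM in medium. The log2 fold change was 1.37 (SE 0.35, edgeR adjusted p = 0.0169). The medium libraries lay apart, so that the fitted change was 1.97 without medium replicate 1 and 0.96 without medium replicate 2, with a call in both.

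Birc2 and Birc3 encode the ubiquitin ligases cIAP1 and cIAP2, which attach the chains on RIPK1 that hold the IKK and TAK1 kinases, and with TRAF2 and TRAF3 they also degrade NIK. The genes lie next to each other on chromosome 9 on the minus strand, at chr9:7818227-7837057 and chr9:7848699-7873024 in GENCODE. Birc3 had 9706 and 10437 reads with TL1A and 4343 and 4830 in medium, or 900.5 ± 2.04 CPM with TL1A and 353 ± 11.3 CPM in medium (SD, n = 2 each). That was a 2.55-fold change (log2 fold change 1.35, SE 0.06, edgeR adjusted p = 4.69e-06).

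Birc2 had 5038 and 4781 reads with TL1A and 2929 and 3352 in medium, or 439.99 ± 39.8 CPM with TL1A and 242 ± 12.6 CPM in medium. Its change was 1.82-fold (log2 fold change 0.86, SE 0.09, edgeR adjusted p = 0.000205). Neither gene's groups overlapped. Within a library, Birc3 had 1.93 and 2.18 times the reads of Birc2 with TL1A and 1.48 and 1.44 times in medium. That ratio was higher in 2 of 2 TL1A libraries, but an exact two-sided permutation test of 2 against 2 cannot go below p = 0.333, the value it gave (0.4 adjusted over 6 pairs).

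**Figure D3:**
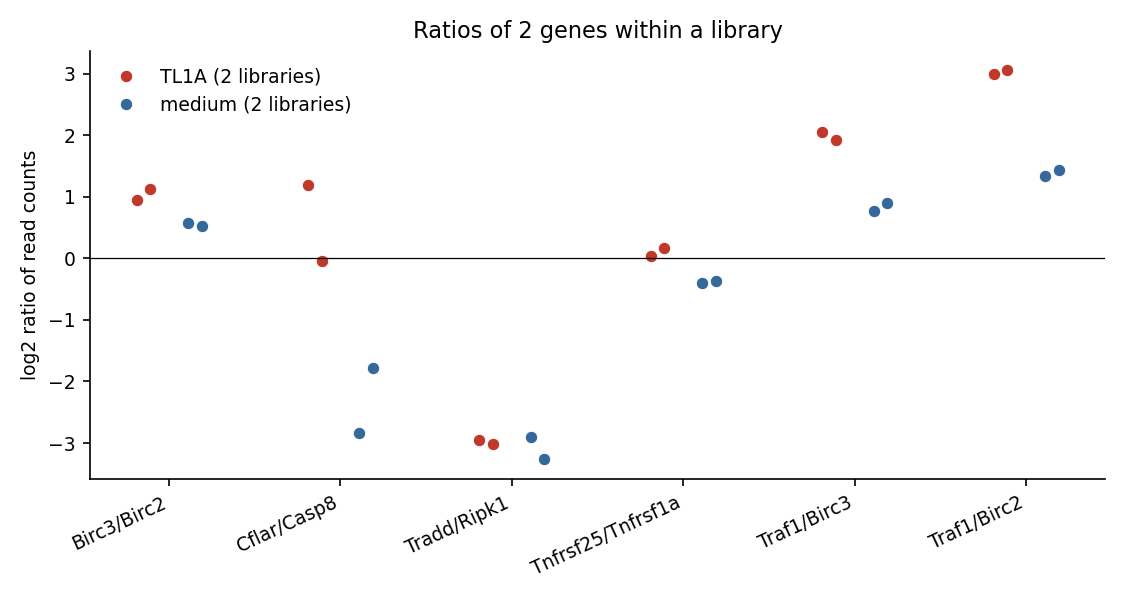
Log2 ratio of the read counts of 2 genes within each library, for the 6 pairs with reads in every library; points are the 2 TL1A and the 2 medium libraries. The Birc3 to Birc2 ratio is 0.95 and 1.13 on this scale with TL1A and 0.57 and 0.53 in medium, and the ratio of Tradd to Ripk1 overlaps between the groups.

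Traf1 also differed from both cIAP genes in its reads within a library, in pairs picked out after their values were seen. There were 4.12 and 3.80 Traf1 reads for each Birc3 read with TL1A, against 1.69 and 1.87 in medium, and 7.94 and 8.30 for each Birc2 read with TL1A, against 2.51 and 2.69 in medium. The exact permutation p was 0.333 for each, the smallest these libraries allow. Corrected for annotated length, the order of the single-row members was the same in both groups. Traf1 was highest, at 1598 and 1471 CPM per kilobase with TL1A and 251.8 and 290.0 in medium. Birc3 followed at 338 and 337 CPM per kilobase with TL1A and 129.5 and 136 in medium, and then Birc2 at 141 and 124 with TL1A and 70.0 and 75.3 in medium. Ripk1 and Tradd were far lower, at 7.31 and 7.79 CPM per kilobase for Ripk1 with TL1A and 5.22 and 7.77 in medium, and at 3.63 and 3.67 for Tradd with TL1A and 2.68 and 3.10 in medium. No neighbours in that order overlapped within a group. Traf5 was not placed in it because its transcript was not matched.

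The start regions of Traf1, Birc3 and Birc2 are shown because these were the called members with the most reads. They are RefSeq windows (GRCm38.p6), written 5′ to 3′ on the minus strand, where all of these genes lie, with the 50 bases from the start onward in capitals.
Traf1, chr2:34961723-34962022: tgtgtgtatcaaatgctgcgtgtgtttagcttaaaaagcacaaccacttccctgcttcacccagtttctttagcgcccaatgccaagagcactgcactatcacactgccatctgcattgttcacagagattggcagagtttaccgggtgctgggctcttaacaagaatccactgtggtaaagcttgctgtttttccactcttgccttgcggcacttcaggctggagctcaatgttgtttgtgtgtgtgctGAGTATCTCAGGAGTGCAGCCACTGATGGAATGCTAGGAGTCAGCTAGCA
Birc3, chr9:7873121-7873420: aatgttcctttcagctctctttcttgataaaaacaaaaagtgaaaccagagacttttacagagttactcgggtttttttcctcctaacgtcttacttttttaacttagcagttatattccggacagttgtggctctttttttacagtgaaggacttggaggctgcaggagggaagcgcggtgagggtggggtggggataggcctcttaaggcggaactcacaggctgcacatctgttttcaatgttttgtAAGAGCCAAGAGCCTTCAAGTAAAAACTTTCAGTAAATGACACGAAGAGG
Birc2, chr9:7837008-7837307: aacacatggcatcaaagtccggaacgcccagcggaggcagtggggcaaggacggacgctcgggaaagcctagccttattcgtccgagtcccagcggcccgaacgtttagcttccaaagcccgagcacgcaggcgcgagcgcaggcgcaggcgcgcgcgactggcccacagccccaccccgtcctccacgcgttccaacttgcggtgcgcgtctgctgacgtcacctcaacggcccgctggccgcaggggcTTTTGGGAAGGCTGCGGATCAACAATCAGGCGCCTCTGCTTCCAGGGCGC
Loose forms of the site bound by NF-κB, GGGA or GGGG followed by any 4 bases and CC, were searched on both strands in the 12 windows of the 9 members that have one. The form with GGGA was in 4 of 12 windows and in 20.7% of 32851 mouse windows of the same length, and the form with GGGG was in 3 of 12 and in 18.7% of all. The windows of Traf1 and Birc2 held neither, and that of Birc3 held GGGATAGGCC, which begins 57 bases before its RefSeq start. That start, at base 7873170, is upstream of base 7873024, where the GENCODE transcript of the counted Birc3 row starts. The whole Birc3 window therefore lies outside that transcript. The stricter 10-base NF-κB consensus, which overlaps the loose forms, was in 1 of 12 windows and in 4.51% of all. That match, GGGGATTTCC, ends at the base before the RefSeq start of Traf3. A match of letters is not evidence of binding, and its absence says only that these letters are not in the window.

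Cflar encodes c-FLIP, which blocks caspase-8 at the receptor complex. Of its 5 deposited rows only NM_009805 had reads, 48 and 38 with TL1A and 9 and 9 in medium. In GENCODE that row is a short form of 5 exons and 645 coding bases, which ends after the death effector domains, while the long form has 1443 coding bases. Its own stretches are 924 bases, of which 901 are an extended last exon that is intron in the long form, so unspliced long-form RNA would be counted there too, and its part in the result was not tested. At 4.46 and 3.27 CPM with TL1A and 0.716 and 0.673 CPM in medium, the row rose 5.49-fold (log2 fold change 2.46, SE 0.43, edgeR adjusted p = 0.00324). The long form, NM_207653 and 3 rows that share 1 GENCODE transcript, had 0 reads in every library, and what these rows share was not counted. In GENCODE NM_207653 has 0 of 3163 bases to itself, and the other 3 rows are not told apart. With those models no read could be assigned to any of these rows, so the counts of 0 say nothing of long-form RNA.

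**Figure D4:**
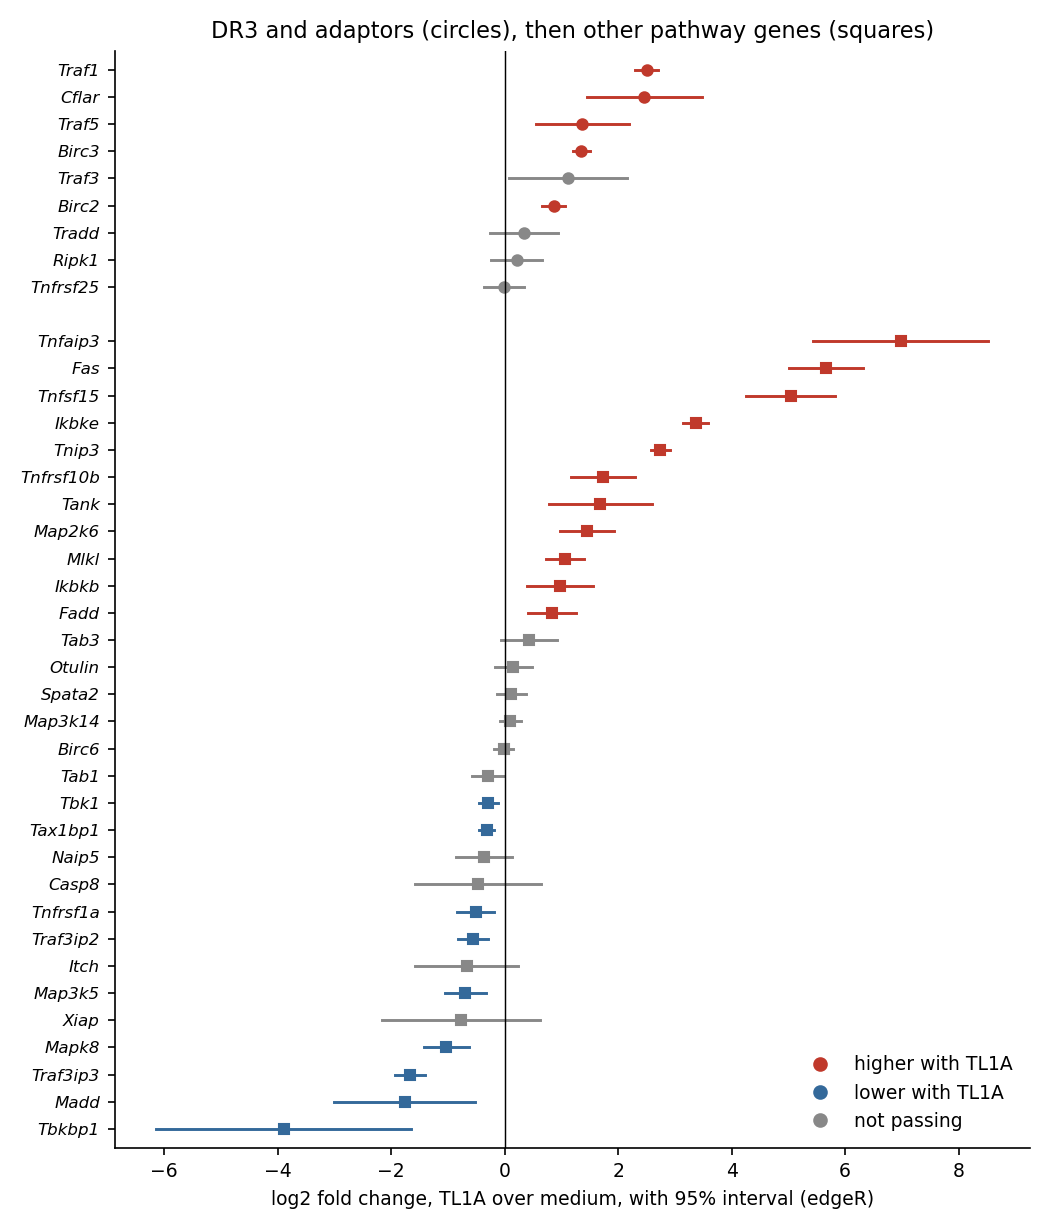
Log2 fold change of TL1A over medium with its 95% interval from the edgeR fit, for the 9 tested members (circles, above) and the named genes of the wider pathway (squares, below); colour gives the call at an adjusted p under 0.05. Traf1 at 2.50 and Tnfsf15 at 5.04 were called higher and Mapk8 at -1.03 was called lower, while Tnfrsf25 at -0.01 was not called.

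Around the members, a list of 57 other genes of DR3 and TNF receptor signalling moved in both directions. Of 43 tested, 12 were higher, 9 were lower and 22 did not pass, against the 20.6% and 21.7% of all genes given above. Their median log2 fold change was 0.02. Tnfsf15 and Tnfaip3 entered the test only because of their reads in the TL1A libraries, and Tbkbp1 and Madd only because of their medium reads. Xiap, with 19 and 6 reads with TL1A and 22 and 28 in medium, would not have entered on its TL1A reads alone. Rbck1 would not have entered on the reads of either group alone. The place of these genes in this count and in those by role was partly set by the filter on low counts. Several genes of the list, among them Fas, Tnfaip3, Tank and Ikbkb, have more than 1 row, and reads shared by their rows were not counted. The list was drawn up with earlier results of these data known.

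Among ligand and receptors, Tnfsf15, which encodes TL1A itself, had 196 and 239 reads with TL1A and 10 and 5 in medium. Both TL1A libraries were above both medium libraries, and the log2 fold change was 5.04 (SE 0.33, edgeR adjusted p = 2.45e-05). It was 5.65 without medium replicate 1 and 4.62 without medium replicate 2. Fas, a death receptor that uses FADD, rose by 5.66 (SE 0.28). Its log2 fold change was 5.17 without medium replicate 1 and 6.46 without medium replicate 2. The Fas reads leave out those that its 2 rows share. Tnfrsf10b, the mouse TRAIL receptor, rose by 1.73 (SE 0.24). Tnfrsf1a, the TNF receptor that assembles the same TRADD and RIPK1 complex, had 568 and 716 reads with TL1A and 1121 and 982 in medium. It fell by 0.51 (SE 0.14, adjusted p = 0.0219), a call lost without TL1A replicate 1 (adjusted p = 0.114) or medium replicate 1 (adjusted p = 0.0977). Within a library there were 1.03 and 1.12 Tnfrsf25 reads for each Tnfrsf1a read with TL1A, against 0.756 and 0.778 in medium (exact permutation p = 0.333). The Tnfrsf25 reads in this ratio leave out those that its rows share.

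Of the other TRAF and TRAF-binding proteins, 1 of 5 tested rose, 2 fell and 2 did not pass, against 20.6% of all genes higher and 21.7% lower. Tank, a TRAF-binding adaptor of TBK1, rose by 1.69 (SE 0.39, edgeR adjusted p = 0.011) on 37 and 50 reads with TL1A and 17 and 14 in medium, and its call was lost without TL1A replicate 2 (adjusted p = 0.0734). Traf3ip3, a TRAF3-binding protein of lymphocytes, had 432 and 414 reads with TL1A and 1460 and 1675 in medium and fell by 1.67 (SE 0.11). Traf3ip2, the IL-17 receptor adaptor Act1, fell by 0.56 (SE 0.11). None of 3 tested BIRC proteins outside the members passed: Birc6 had a log2 fold change of -0.02 (SE 0.07), whose sign changed with the scaling and which was called lower with no composition factors, Naip5 one of -0.36 (SE 0.21), also called lower in that setting (-0.61, adjusted p = 0.0471), and Xiap one of -0.76 (SE 0.59). Leaving out TL1A replicate 1 put Xiap at -1.87, and leaving out TL1A replicate 2 put it at -0.11.

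Ubiquitin editors differed gene by gene. Among the linear ubiquitin ligase and deubiquitinase genes 1 of 7 tested rose and 6 did not pass, against 20.6% of all genes higher and 21.7% lower. The 1 was Tnfaip3, which encodes the feedback inhibitor A20, with 61 and 77 reads with TL1A and 0 and 1 in medium. Reads that its 2 rows share were not counted, so these are not the level of the whole gene. On 1 counted medium read the ratio is 160-fold with an exact 95% counting interval of 28.2 to 6364. Otulin and Spata2 had log2 fold changes of 0.16 (SE 0.14) and 0.11 (SE 0.11), both below 0 with no composition factors. Of the A20 partners, Tnip3 had 7612 and 8099 reads with TL1A and 1278 and 1443 in medium, a rise of 2.74 (SE 0.07, edgeR adjusted p = 3.52e-07), and Tax1bp1 fell by 0.32 (SE 0.06). Itch, a ligase that works with A20, had a log2 fold change of -0.67 (SE 0.39).

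Among kinases below the adaptors, Ikbke, which encodes IKKε, had 9613 and 10706 reads with TL1A and 1018 and 1272 in medium. It rose by 3.36 (SE 0.10, edgeR adjusted p = 4.8e-07). The related kinase gene Tbk1 fell by 0.29 (SE 0.07), a call lost without TL1A replicate 1 (adjusted p = 0.133), TL1A replicate 2 (0.0679) or medium replicate 2 (0.0584) and with the replicate number as a block (0.0523). Tbkbp1, a TBK1-binding adaptor, was lower on 2 reads with TL1A and 38 in medium, a ratio of 0.061 (exact 95% counting interval 0.00713 to 0.236); its call was lost without TL1A replicate 2 (adjusted p = 0.0804) or medium replicate 1 (0.0873).

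Ikbkb, which encodes the canonical IκB kinase IKKβ, rose by 0.98 (SE 0.25), while the TAK1 partners Tab1 and Tab3 had log2 fold changes of -0.29 (SE 0.12) and 0.43 (SE 0.21). Tab1 was called lower without TL1A replicate 1 (edgeR adjusted p = 0.0376), with upper quartile factors (0.0467) and with no composition factors (0.00769), and Tab3 was called higher without medium replicate 2 (0.0262). Map3k14, which encodes NIK, had 3558 and 3742 reads with TL1A and 4049 and 3828 in medium (log2 fold change 0.10, 95% interval -0.09 to 0.29, and -0.16 with no composition factors). Of 6 tested genes of the MAP kinase branch, 2 rose and 2 fell, against 20.6% of all genes higher and 21.7% lower. The p38 activator Map2k6 rose by 1.45 (SE 0.20), and the JNK1 gene Mapk8 and the kinase gene Map3k5 fell by 1.03 (SE 0.17) and 0.69 (SE 0.15). The second rise, named after its value was seen, was Map2k4, a JNK-activating kinase gene (log2 fold change 0.41, edgeR adjusted p = 0.0277). Its call was lost without each single library (adjusted p 0.0515 to 0.155), with the replicate number as a block (0.0646) and with no composition factors (0.325).

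In the death-inducing branch, Fadd, the adaptor that brings in caspase-8, rose by 0.83 (SE 0.18, edgeR adjusted p = 0.00842) and Mlkl, the effector of necroptosis, rose by 1.07 (SE 0.14). Casp8 itself had 21 and 39 reads with TL1A and 64 and 31 in medium, groups that overlapped, with a log2 fold change of -0.47 (95% interval -1.59 to 0.65). Madd, a death domain protein that binds TNF receptor 1, fell by 1.76 (SE 0.53) on 7 and 5 reads with TL1A and 20 and 28 in medium. That call was lost without each single library (adjusted p 0.0799 to 0.201), with the replicate number as a block (0.0687) and with DESeq2 (0.182). Within a library Cflar had 2.29 and 0.974 times the reads of Casp8 with TL1A and 0.141 and 0.29 times in medium, from rows that each hold only part of their gene.

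The genes with the most similar profile over the 4 libraries, by the root mean square difference of mean-centred log2 CPM among 9661 other genes, were Wdr45b (0.013), Bloc1s4 (0.018) and Wrnip1 (0.019) for Tnfrsf25. For Traf1 they were Cdc42ep2 (0.025), Tuba1a (0.048) and Mettl1 (0.049).

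**Figure D5:**
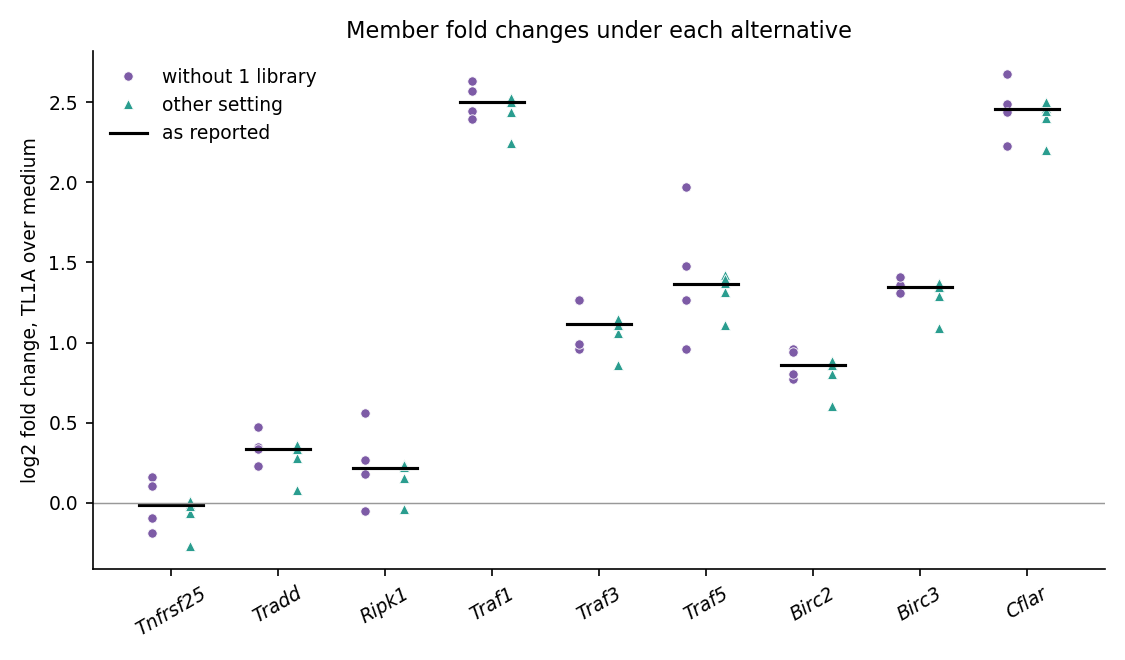
Log2 fold change of the 9 tested members as reported (black bars), without each of the 4 libraries (circles) and under 6 other settings of scaling, filter, test or block (triangles). Traf1, Birc2, Birc3, Traf5 and Cflar stay above 0 in all of them, and Tnfrsf25 and Ripk1 fall on both sides of 0.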

How the data were processed

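Cells were sequenced as 4 RNA-seq libraries, 2 with TL1A and 2 in medium. The cDNA kit, per the labels' protocols, was Clontech's SMARTer Ultra Low Input. Per the submitters' processing notes, CASAVA, STAR and HTSeq were used on mm9; the sources used here state no version, strand setting or annotation. The authors deposited a raw count for each RefSeq transcript, so reads shared by several rows are ambiguous and in no row (33.7% to 34.0% of assigned plus ambiguous reads). The 5 HTSeq summary rows were left out. Those for no feature, ambiguous and not uniquely placed reads held 69.9% to 71.3% of the total of these and the assigned reads.

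Of 33535 rows, 33154 matched a symbol by accession in a RefSeq table of GRCm38.p6, and rows were summed per gene. Testing used edgeR 4.0.16 under R 4.3.3, by quasi-likelihood (glmQLFit, glmQLFTest) with TMM factors, filterByExpr at its minimum count of 10 and no term besides group; tests were two-sided at a Benjamini-Hochberg threshold of 0.05. Rows were tested likewise, and within genes with diffSpliceDGE. The scripts were tested on simulated data. Standard errors are the log2 fold change over the square root of F. The common biological coefficient of variation was 0.12. Alternatives were RLE, upper quartile and no composition factors, no filter, DESeq2 1.42.0, a replicate block, each library left out, and single-row genes. Exon structures of 16 of 17 member rows came from GENCODE M21 (GRCm38) and start regions from RefSeq (GRCm38.p6), not the build of the counts; ends of models can differ. Pathway genes named were the up to 3 with the smallest p in each role, plus Tnfsf15 and Casp8. The members and lists were chosen with earlier results of these data known. Some marker genes are not reported here.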

Additional observations from a re-analysis of the deposited data

How the results depend on the processing

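With single libraries left out, 5 to 6 members were called higher and 0 lower, and the count over all genes was 1596 to 1956 higher and 1597 to 1823 lower. In the 6 other planned settings 5 members were called higher. No change of sign listed here came with a call. The log2 fold change of Tnfrsf25 was 0.013 with RLE factors, 0.013 with DESeq2 and -0.19 to 0.16 without single libraries. That of Birc6 was 0.0068 with RLE factors, 0.0067 with DESeq2 and -0.085 to 0.063 without single libraries, and it was called lower with no composition factors (-0.28, adjusted p = 0.0142). Ripk1 ranged from -0.049 to 0.56 and Casp8 from -0.91 to 0.19 without single libraries. With no composition factors Ripk1 was at -0.042, Otulin at -0.10, Spata2 at -0.14 and Map3k14 at -0.16. That setting moved the median of all genes to -0.29, against -0.03 as reported, and gave 1311 genes higher and 3472 lower, so 27.4% of calls were higher against 48.6%. The count of genes with unequal row changes was 0 to 20 without single libraries, and the value of NM_033042 against the Tnfrsf25 gene was -0.69 to -0.68 there; the cause was not tested. The lone library of a group is then assumed to vary like the others. The shared replicate numbers have no stated meaning, and deviations of same-numbered libraries correlated at -0.105 across genes. With the replicate block 1736 genes were higher and 1806 lower, with 5 members higher and a within-gene adjusted p of 0.0381 for Tnfrsf25; with crossed numbers, added after seeing the data, there were 2295 and 2439 genes and 5 members. Ratios to Traf2 could not be computed, as it had 0 reads. Low counts limit Traf3, Cflar, Traf5 and Tradd, each with at most 125 reads in a library.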
